A study of Caenorhabditis elegans with 14 samples.

Results

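The polysomal RNA of worms labelled pycr-1(wrm22) was set against that of wild-type worms, gene by gene. The comparison held 11881 genes, those tested by the authors that reached 1 FPKM or more in both polysomal groups, out of 14696 tested in it and 41875 entries of gene name and locus in the whole series. FPKM is a fragment count scaled for the length of the transcript and for the depth of the library, so levels can be set side by side between genes. The mutant-labelled group comprised 4 libraries and the wild-type group, of strain Bristol N2, comprised 3. All worms were gravid Caenorhabditis elegans, synchronized to day 1 of adulthood and raised at 20 °C on the bacterial strain OP50, with about 12000 worms per harvest. Whole worms were lysed in cycloheximide, which holds ribosomes on mRNA, and mRNA carrying at least 3 ribosomes was collected from sucrose gradients. Total RNA of such lysates gave another 4 mutant-labelled and 3 wild-type libraries. The labels name no treatment of either strain, and the nature of the wrm22 allele is not stated in them. Nor is it stated whether replicates came from separate cultures, so every p-value reflects just the spread between these libraries, which may be technical.

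The enzyme pycr-1 is a pyrroline-5-carboxylate reductase, which carries out the last step of proline synthesis. Messenger RNAs loaded with several ribosomes are the ones under active translation, so polysomal RNA shows which mRNAs the ribosomes are occupied with. The level of an mRNA in that pool depends both on how much of it the worm holds and on how well it is loaded. In a gravid adult hermaphrodite, the germline with its oocytes and embryos makes up much of the RNA, beside the epidermis, intestine, muscle and neurons. By its title, the series is about ribosome assembly stress, the methionine cycle and lifespan in a strain that makes too little proline.

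For each gene the deposited table gives a single pooled FPKM per group, without values of single libraries or their depth. Log2 fold changes are mutant-labelled over wild type, and ± marks an SE worked out from the deposited test statistic, taking each pooled group as the mean of its libraries. That SE had a median of 0.19 over the 11881 genes. A gene is said to rise or fall, or to be called higher or lower, where its q-value in the authors' deposited table was under 0.05. The median log2 fold change was -0.26 over the 8415 genes that reached 5 FPKM in both groups. A centred log2 fold change is the value with this median taken away. Known tissue markers of a gravid adult were present in both groups, among them the yolk gene vit-6 at 4463 FPKM in mutant-labelled and 5420 FPKM in wild-type polysomes, and the adult cuticle collagen gene col-19 at 1619 FPKM in mutant-labelled and 2327 FPKM in wild-type worms.

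The gene that names the strain was higher in the group labelled as its mutant. In polysomal RNA, pycr-1 (listed in the table as M153.1, build WBcel235, chrX:12146832-12148529, plus strand) stood at 40.8 FPKM in mutant-labelled and 12.6 FPKM in wild-type worms, a log2 fold change of 1.70 ± 0.18. Next to it in the pathway, alh-13, whose enzyme makes the substrate of pycr-1, stood at 60.8 FPKM in mutant-labelled and 17.1 FPKM in wild-type worms (1.83 ± 0.34). The interval deposited for alh-13 (chrX:12705624-12813947) is also the one deposited for the transporter gene pgp-12, so how reads were divided there is uncertain. The other 4 genes of proline metabolism did not pass the threshold: pycr-4 stood at -0.40 ± 0.20, the breakdown genes alh-6 and B0513.5 (prdh-1) at -0.27 ± 0.15 and -0.12 ± 0.17, and the ornithine aminotransferase gene oatr-1 at -0.21 ± 0.15. Since FPKM was summed over the gene, it cannot tell which part of the transcript was there, so the value of pycr-1 does not check the labels, and every direction below rests on them.

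Across all genes, the polysomal pools of the strains differed widely. Before centring, many moderate falls were seen among well expressed genes and fewer but larger rises among weakly expressed ones. By the q-values of the authors' deposited table, 1602 genes were higher (13.5%) and 3214 lower (27.1%), together 40.5% of the genes. Part of this imbalance lay in the common offset of -0.26. A Wald test of the centred changes called 2659 genes higher (22.4%) and 912 lower (7.68%), so that rises made up 74.5% of the calls, against 33.3% before centring. None of the genes called lower had a centred value above 0. The quartiles of the centred changes were -0.18 and 0.54, and 90% lay between the 5th percentile of -0.58 and the 95th of 1.27. Centred changes of at least 2-fold were seen upward in 1039 genes (8.75%) and downward in 216 (1.82%), and of at least 4-fold in 157 and 5. The median over all 11881 genes was -0.14, or 0.12 when centred, and these are the values to hold beside the medians of the gene lists below. The centred median also varied with level. It was 0.45 for genes with a mean of 1 to 5 FPKM, 0.17 at 5 to 20 FPKM and -0.06 at 20 to 100 FPKM. A list of weakly expressed genes is therefore to be held beside the value of its own level.

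**Figure D1:**
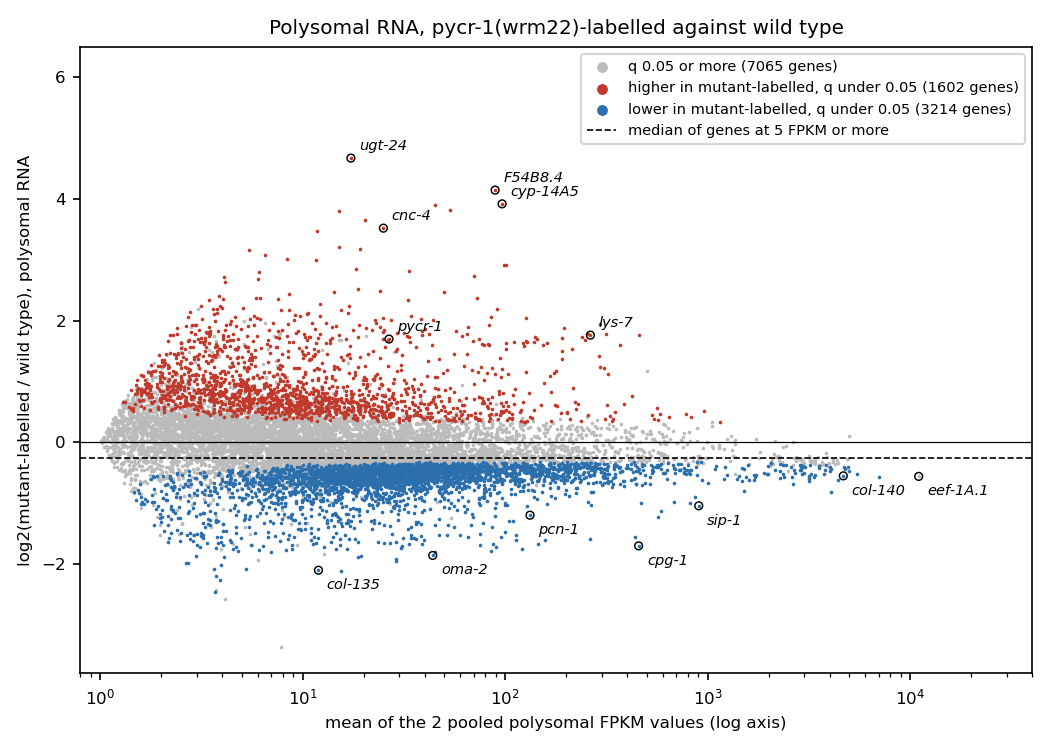
Log2 fold change in polysomal RNA (mutant-labelled over wild type) against the mean of both pooled FPKM values (log axis), 1 point per gene. Red points are the 1602 genes called higher, blue the 3214 called lower and grey the rest, and the dashed line marks the median of -0.26. Large rises lie mostly below 100 FPKM, and the most abundant genes sit near or below the dashed line.

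The 12 largest rises lay on chromosomes V (8 genes) and IV (4 genes), with log2 fold changes between 3.17 and 4.67. They were taken among called genes that reached 5 FPKM in at least 1 group. The largest was ugt-24, a UDP-glucuronosyltransferase gene of small-molecule detoxification, with 33.3 FPKM in mutant-labelled and 1.31 FPKM in wild-type polysomes (4.67 ± 0.99). The cytochrome P450 gene cyp-14A5 stood at 181 FPKM in mutant-labelled and 11.97 FPKM in wild-type worms (3.92 ± 0.18). The gene catp-3, which encodes an ion pump of the Na+/K+ ATPase family, stood at 100.2 FPKM in mutant-labelled and 7.13 FPKM in wild-type worms (3.81 ± 0.17). These genes were weak in wild-type polysomes and moderately abundant in mutant-labelled ones. Then parg-2, whose product removes poly(ADP-ribose) from proteins, had 37.6 FPKM in mutant-labelled and 2.98 FPKM in wild-type worms (3.66 ± 0.21), and the antimicrobial peptide gene cnc-4 had 46.1 FPKM in mutant-labelled and 4.02 FPKM in wild-type worms (3.52 ± 0.28). The remaining members have no gene name that states a function: F54B8.4 (169 FPKM in mutant-labelled, 9.54 FPKM in wild type), Y58A7A.5 (84.4 FPKM in mutant-labelled, 5.64 FPKM in wild type), T26H5.9, C50F7.5, C06B3.7, F14F9.4 and idpp-12.

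The 12 largest falls, taken among called genes by the same limit of 5 FPKM in a group, were smaller than the rises, with log2 fold changes between -2.46 and -1.89, and 4 of them lay on the X chromosome. The family of Skp1-related genes, adaptors of ubiquitin ligases, gave 3 of them. Of these, skr-7 had 12.1 FPKM in mutant-labelled and 45.6 FPKM in wild-type worms (-1.91 ± 0.20), skr-14 had 5.82 FPKM in mutant-labelled and 25.2 FPKM in wild-type worms (-2.11 ± 0.24), and skr-15 had 1.56 FPKM in mutant-labelled and 6.32 FPKM in wild-type worms (-2.02 ± 0.24). The cuticle collagen genes col-135 (4.52 FPKM in mutant-labelled, 19.4 FPKM in wild type) and dpy-17 (1.74 FPKM in mutant-labelled, 6.46 FPKM in wild type) were also among them, against the direction of most collagens. The others were rgs-11, a regulator of G protein signalling, the trypsin-like protease gene try-1, the small nuclear RNA C27H5.11 and the unnamed genes C29F7.10, F46E10.2, F54F7.6 and R04D3.3.

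**Figure D2:**
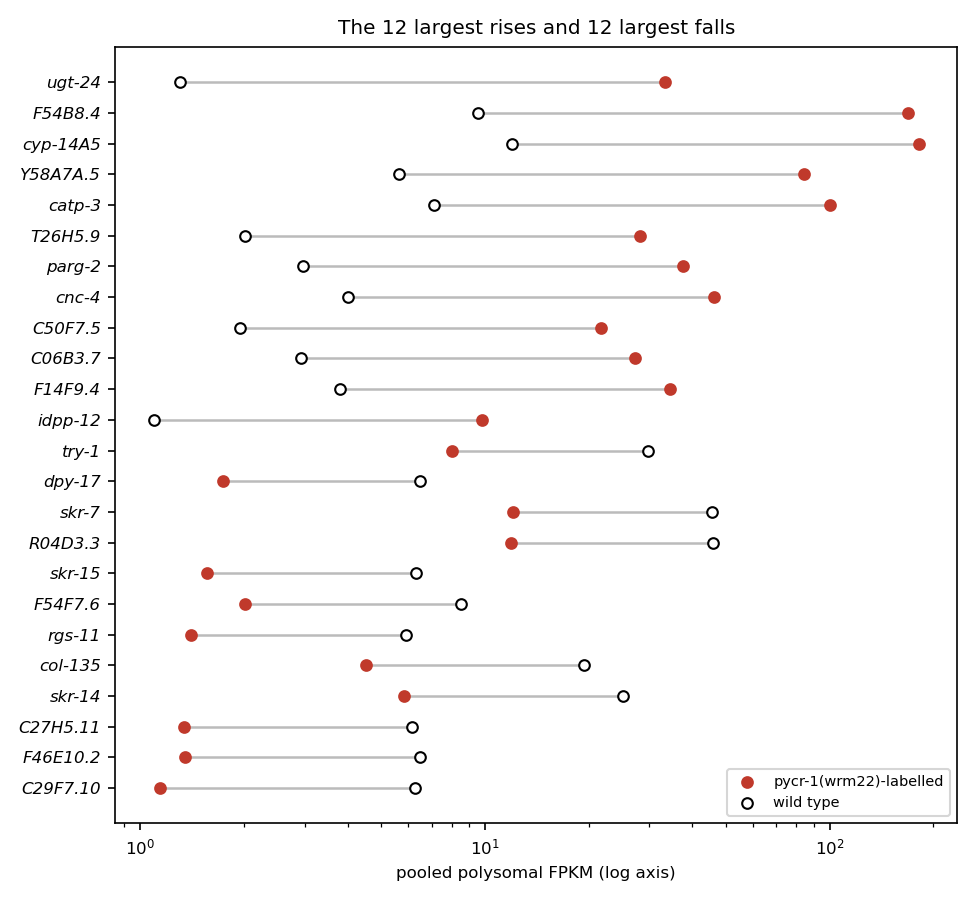
Pooled polysomal FPKM (log axis) of the 12 largest rises (top) and the 12 largest falls (bottom), with filled red points for mutant-labelled worms and open points for wild type. The rises span log2 fold changes of 3.17 to 4.67 and the falls -2.46 to -1.89.

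Genes of the oocyte and the maternal supply fell together. Of the 55 members of that list above the minimum, 1 was called higher and 45 lower, and the median log2 fold change was -1.33 (centred -1.07, with 38 still called lower). In whole-worm RNA, fewer cells of a type and less RNA per cell cannot be told apart. The oocyte RNA-binding protein genes oma-2 and oma-1, which hold maternal mRNAs silent until the oocyte matures, had 18.97 FPKM and 18.2 FPKM in mutant-labelled against 68.9 and 54.8 FPKM in wild-type polysomes. The yolk receptor gene rme-2 had 69.3 FPKM in mutant-labelled and 222 FPKM in wild-type worms (-1.68 ± 0.15).

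The eggshell and egg activation genes shared this fall. All but 1 of the 14 members were called lower and the median was -1.36 (-1.11 when centred). The chondroitin proteoglycan genes of the eggshell, cpg-1 and cpg-2, had 214 and 223 FPKM in mutant-labelled against 698 and 658 FPKM in wild-type worms, and the egg surface receptor gene egg-1 had 42.1 FPKM in mutant-labelled against 139 FPKM in wild-type worms. All 9 genes of the CCCH and KH classes of maternal RNA-binding proteins were called lower, and their median was -1.39 (centred -1.14); one was mex-5 (47.7 FPKM in mutant-labelled, 125 FPKM in wild type), which helps set the polarity of the early embryo. The genes meg-1, meg-2, meg-3 and meg-4, which shape germ granules in the embryo, had log2 fold changes between -1.86 and -1.61. The list was not uniform. The stem cell regulators fbf-1, fbf-2 and glp-1, which act in the mitotic germline, stood at -0.17 ± 0.17, -0.20 ± 0.16 and -0.28 ± 0.16 and did not pass the threshold, and puf-9, whose product belongs to the same RNA-binding family as fbf-1 and acts in the epidermis, was the member called higher (0.39 ± 0.16).

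The genes of DNA replication fell nearly without exception. Of 36 members 0 were called higher and 34 lower, with a median of -0.85 (-0.59 when centred, with 31 called). All 6 subunits of the MCM helicase, which opens DNA at replication origins, were lower, with a median of -1.06. The sliding clamp gene pcn-1 had 80.6 FPKM in mutant-labelled and 185 FPKM in wild-type polysomes (-1.20 ± 0.15), and mcm-7 had 42.03 FPKM in mutant-labelled and 95.5 FPKM in wild-type worms (-1.18 ± 0.15). Among 66 genes of cell division 1 was higher and 50 lower (2 and 25 when centred), with a median of -0.61 (-0.36 when centred). The B-type cyclin genes cyb-2.1 and cyb-2.2 had 8.38 and 15.8 FPKM in mutant-labelled against 25.3 and 46.8 FPKM in wild-type worms. Among 47 histone genes 2 were higher and 28 lower (2 and 16 when centred), with a median of -0.57 (-0.31 when centred). How reads were divided among the histone genes is uncertain, since many are near-identical copies, and the same holds for the skr genes and the cyb-2 pair.

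The meiosis list held few calls beyond the common offset. Of its 36 members 0 were higher and 13 lower, the median was -0.33 (-0.08 when centred), and 1 was called lower after centring. The lowest was him-14, a meiotic crossover gene (-0.66 ± 0.18). Broader Gene Ontology terms in the authors' deposited table, looked up after their values were seen, gave other counts: of 85 genes of the meiotic cell cycle 2 were higher and 72 lower (centred median -0.35), and of 17 of DNA recombination 0 were higher and 16 lower (centred median -0.34). Germ granule and Argonaute genes, which act with small RNAs, were mixed, with 3 higher and 17 lower of 34 (5 and 5 when centred) and a centred median of -0.09. The Argonaute genes alg-3 and alg-4, which act in sperm formation, rose to 34.4 and 37.01 FPKM in mutant-labelled worms, against 18.99 and 18.8 FPKM in wild type, and wago-10 rose as well (1.69 ± 0.19), while ergo-1, which acts in the oocyte and embryo, fell (-0.88 ± 0.17). Of 23 early embryo genes 2 were higher and 13 lower, with a median of -1.29 (-1.03 when centred). Over the 9 members that reached 5 FPKM in both groups, the centred median was 0.33, although skr-7 and skr-14 were among them; that limit leaves out members which fell below it in mutant-labelled worms. All 7 Skp1-related members were lower, with a median of -1.71.

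Sperm genes went the other way from oocyte genes. Of 88 members 28 were higher and 3 lower, with a median of 0.24 (0.50 when centred, with 49 called higher and 0 lower). Of the 24 spe and fer genes, in which mutations block sperm formation or function, 16 were higher and 1 lower (19 and 0 when centred). Of the 31 msp genes, which encode major sperm proteins, 2 were higher and 0 lower (15 and 0 when centred). The gene fer-1, needed for membrane fusion in sperm, had 5.69 FPKM in mutant-labelled and 2.63 FPKM in wild-type worms (1.12 ± 0.18). The abundant msp-59 had 852 FPKM in mutant-labelled and 760 FPKM in wild-type worms (0.17 ± 0.15) and passed the threshold only after centring. The msp genes are near-identical copies.

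Cuticle collagens split by how abundant they were. Over the members of the list at 1 FPKM or more in both groups, 72 were higher and 20 lower, with a median of 1.03 (1.29 when centred). Of the 25 members with a mean of 1 to 10 FPKM 13 were higher and 1 lower, of the 45 at 10 to 100 FPKM 35 were higher and 2 lower, and of the 36 at 100 to 1000 FPKM 24 were higher and 6 lower. The medians of these groups were alike, at 1.24, 1.16 and 1.13. Of the 17 members at 1000 FPKM or more, 0 were higher and 11 lower, with a median of -0.52 (-0.27 when centred, when 0 of them were called in either direction). The summed collagen FPKM was lower in mutant-labelled than in wild-type polysomes, by a ratio of 0.83, although most collagen genes were higher.

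The members that rose included the collagens that shape the body and the cuticle furrows. The roller and squat genes rol-6 and sqt-3 had 32.4 and 116 FPKM in mutant-labelled against 8.87 and 37.6 FPKM in wild-type worms. The body-length gene dpy-13 had 232 FPKM in mutant-labelled against 76.9 FPKM in wild-type worms. The furrow collagen genes dpy-7 and dpy-3 were weaker, with 5.54 and 6.17 FPKM in mutant-labelled against 2.03 and 1.89 FPKM in wild-type worms. Log2 fold changes of these genes lay between 1.45 and 1.87. The abundant adult collagens sat below them: col-140, at 3795 FPKM in mutant-labelled and 5564 FPKM in wild type, had -0.55 ± 0.17, and col-19 had -0.52 ± 0.17. The body-shape gene dpy-17 and col-135 fell, as given above.

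**Figure D3:**
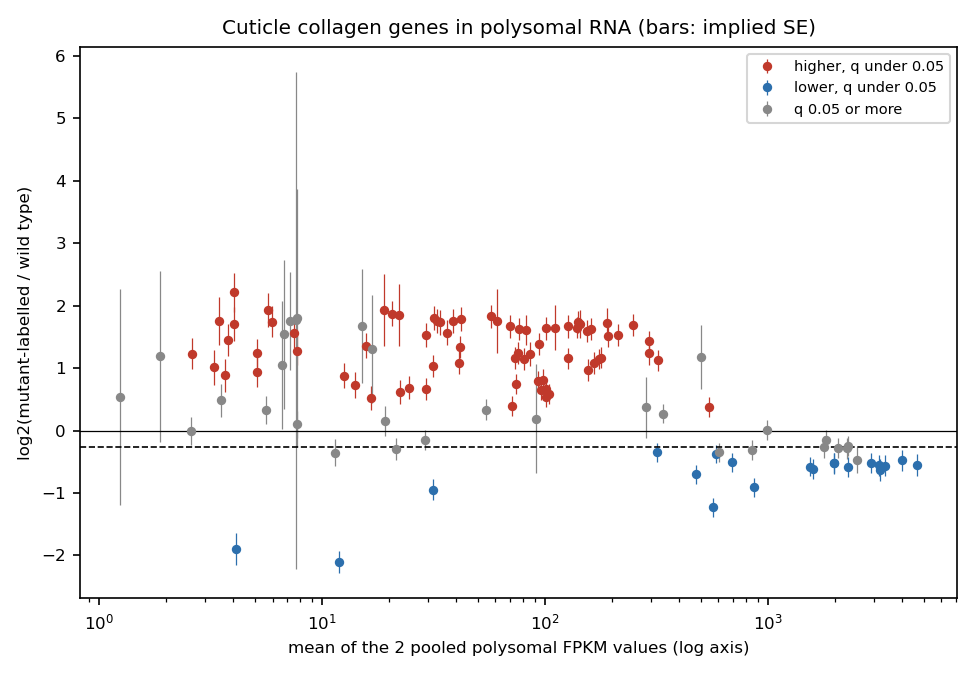
Log2 fold change of the cuticle collagen genes in polysomal RNA against the mean of both pooled FPKM values (log axis), with implied SE as bars, in red where higher, in blue where lower and in grey where not called. Members up to 1000 FPKM lie mostly above 0, and the 17 members above 1000 FPKM lie below 0. The dashed line is the median of -0.26.

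Other genes of the epidermis and the molt rose along with the collagens. Of 80 members 45 were higher and 3 lower, with a median of 0.80 (1.06 when centred), and of the 116 tested at any level 63 were higher and 4 lower. Their level was low, with a median of 7.85 FPKM in mutant-labelled and 4.20 FPKM in wild-type worms, and over the 36 members that reached 5 FPKM in both groups the centred median was 0.64. Among 25 hedgehog-related genes, secreted proteins of the worm's epidermis, 15 were higher and 1 lower, such as grl-5 with 15.6 FPKM in mutant-labelled and 3.72 FPKM in wild-type worms (2.07 ± 0.24). Among 19 patched-related genes, membrane proteins needed for molting, 11 were higher and 2 lower. The lipocalin gene lpr-4 and the hedgehog-related wrt-6 had 6.16 and 7.46 FPKM in mutant-labelled against 1.41 and 1.78 FPKM in wild-type polysomes.

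Among markers of muscle, intestine and neurons few genes passed the threshold before centring, and more were called higher after it. The same held over all genes, where 13.5% were called higher before centring and 22.4% after it. The muscle count after centring was close to that share. Of 15 basement membrane genes 4 were higher and 0 lower (9 and 0 when centred), with a centred median of 0.45, and the SPARC gene ost-1 had 909 FPKM in mutant-labelled and 660 FPKM in wild-type worms (0.46 ± 0.15). Of 52 neuronal genes 4 were higher and 1 lower (18 and 0 when centred), with a centred median of 0.48, and of the 30 FMRFamide-like peptide genes among them 3 were higher, flp-9, flp-15 and flp-24. Of 32 muscle genes 0 were higher and 1, the actin gene act-2, was lower (-0.51 ± 0.15), with a median of 0.05 (0.31 when centred, with 8 higher and 0 lower) and the myosin gene unc-54 at 1119 FPKM in mutant-labelled and 1149 FPKM in wild-type worms. Of 26 intestinal genes 2 were higher and 2 lower, with a median of 0.01 (0.26 when centred, with 9 higher and 1 lower); the protease genes cpr-4 and cpr-5 went in opposite directions, at 0.39 ± 0.15 and -0.68 ± 0.14. The 6 yolk protein genes had a median of -0.38 (-0.13 when centred), with 0 higher and vit-3 lower (-0.53 ± 0.18), a call lost on centring. The transthyretin-related genes, a nematode family of small secreted proteins, had 15 higher and 2 lower of 53 (31 and 2 when centred) and a centred median of 0.60, from ttr-23 at 1.57 ± 0.32 to ttr-50 at -1.64 ± 0.31.

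Genes of innate defence rose in part. Of 29 epidermal antimicrobial peptide genes 15 were higher and 0 lower, with a median of 0.60 (0.86 when centred). The peptide gene nlp-29, known to be induced in the epidermis by fungal infection and wounding, had 131 FPKM in mutant-labelled and 34.6 FPKM in wild-type polysomes (1.92 ± 0.20), and nlp-30 had 14.5 FPKM in mutant-labelled and 2.69 FPKM in wild-type worms. The neighbouring nlp-27, at 404 FPKM in mutant-labelled and 393 FPKM in wild-type worms, and nlp-28 did not pass the threshold. Of 39 infection response, lysozyme and saposin-like genes 11 were higher and 2 lower, with a median of 0.22 (0.47 when centred, with 14 higher and 1 lower). The infection reporter genes irg-1 and irg-2 had 55.5 and 14.9 FPKM in mutant-labelled against 13.1 and 1.85 FPKM in wild-type worms, and their regulator, the transcription factor gene zip-2, had 102 FPKM in mutant-labelled against 62.6 FPKM in wild-type worms (0.71 ± 0.16). The lysozyme gene lys-7 had 407 FPKM in mutant-labelled and 120.1 FPKM in wild-type worms (1.76 ± 0.16), whereas lys-4, at 608 FPKM in mutant-labelled and 614 FPKM in wild-type worms, did not differ beyond its SE.

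Of the 75 C-type lectin genes, secreted sugar-binding proteins often used as defence markers, 22 were higher and 9 lower (32 and 7 when centred), with a centred median of 0.52, from clec-209 at 2.40 ± 0.32 to clec-266 at -1.77 ± 0.34. Of 13 intracellular pathogen response genes 4 were higher and 2 lower (5 and 0 when centred), among them pals-24 (20.8 FPKM in mutant-labelled, 6.47 FPKM in wild type) and the ubiquitin ligase gene cul-6 (5.91 FPKM in mutant-labelled, 2.66 FPKM in wild type). Of 21 targets of DAF-16, the transcription factor of insulin signalling, 8 were higher and 2 lower, with a median of 0.48 (0.73 when centred, with 12 higher and 1 lower). The list was drawn by gene symbol and does not separate genes that DAF-16 raises from genes that it lowers. Its counts therefore give no direction of DAF-16 activity. Apart from lys-7, the list included gpdh-1, which makes the osmolyte glycerol, with 33.03 FPKM in mutant-labelled and 11.7 FPKM in wild-type worms (1.50 ± 0.21), and the thaumatin gene thn-1 (1.40 ± 0.27). The superoxide dismutase gene sod-3, a common reporter of DAF-16, stood at 4.29 FPKM in mutant-labelled and 2.87 FPKM in wild-type worms (0.58 ± 0.27) and was called only after centring. The small heat shock gene sip-1, which acts in embryos, had 591 FPKM in mutant-labelled and 1218 FPKM in wild-type polysomes (-1.04 ± 0.15).

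Detoxification genes rose as single genes more than as families. Of 46 UDP-glucuronosyltransferase genes 13 were higher and 5 lower, with a median of 0.05 (0.30 when centred, with 18 higher and 2 lower). Behind ugt-24 came ugt-29 with 178 FPKM in mutant-labelled and 23.5 FPKM in wild-type worms (2.92 ± 0.17) and ugt-31 with 58.8 FPKM in mutant-labelled and 8.33 FPKM in wild-type worms (2.82 ± 0.18). Of 36 cytochrome P450 genes 2 were higher and 9 lower, with a median of -0.18 (0.07 when centred, with 4 higher and 3 lower). Against the rise of cyp-14A5 stood falls of cyp-31A2 and cyp-31A3, which are needed for the lipid layer of the eggshell, at -1.15 ± 0.16 and -1.02 ± 0.16. Of 36 glutathione S-transferase genes 1 was higher and 3 lower (6 and 2 when centred), with a centred median of 0.27. Of 21 ABC transporter genes, efflux pumps of the pgp and mrp classes, 7 were higher and 2 lower (13 and 1 when centred), with a centred median of 0.49, and pgp-5 stood at 84.8 FPKM in mutant-labelled and 15.2 FPKM in wild-type polysomes (2.48 ± 0.16). Of 127 nuclear hormone receptor genes, a family of transcription factors, 5 were higher and 5 lower (17 and 2 when centred), with a centred median of 0.30. Their median level was 3.15 FPKM in mutant-labelled and 3.13 FPKM in wild-type worms. All genes with a mean of 1 to 5 FPKM had a higher centred median, 0.45.

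The protein synthesis machinery fell by about the common offset and little more. Of 80 cytosolic ribosomal protein genes 2 were higher and 37 lower, with a median of -0.36 (-0.11 when centred, with 3 higher and 0 lower). The genes that rose were paralogues of more abundant genes: rpl-25.1 had 107 FPKM in mutant-labelled and 64.1 FPKM in wild-type worms (0.74 ± 0.17), and rpl-11.2 had 388 FPKM in mutant-labelled and 253 FPKM in wild-type worms (0.62 ± 0.15). The typical member was far more abundant, with a median of 2617 FPKM in mutant-labelled and 3398 FPKM in wild-type polysomes. Of 66 mitochondrial ribosomal protein genes 0 were higher and 39 lower, with a median of -0.40 (-0.15 when centred, when 0 were called in either direction). Of 49 translation factors 2 were higher and 29 lower (3 and 4 when centred), and the median was -0.38 (centred -0.13). Those lower included ife-3, a cap-binding protein gene active in the germline, at 254 FPKM in mutant-labelled and 424 FPKM in wild-type worms (-0.74 ± 0.15), and the stress granule gene gtbp-1 (-0.74 ± 0.14). The elongation factor gene eef-1A.1, the most abundant gene of all, had 8911 FPKM in mutant-labelled and 13144 FPKM in wild-type worms (-0.56 ± 0.22) and did not pass the threshold. Of 31 aminoacyl-tRNA synthetase genes 0 were higher and 18 lower (1 and 0 when centred, with a centred median of -0.14), and of 51 splicing genes 0 were higher and 35 lower (0 and 5 when centred, with a centred median of -0.17).

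Genes that build ribosomes, which the title of the series points to, seldom passed the threshold. Of 48 members 0 were higher and 8 lower, with a median of -0.24 (0.02 when centred). The 8 members that fell include the nucleolar genes fib-1 and dkc-1, whose products carry out rRNA methylation and pseudouridylation, and exosome genes such as exos-7. The fibrillarin gene fib-1 had 565 FPKM in mutant-labelled and 713 FPKM in wild-type worms (-0.33 ± 0.15), and the largest fall in the list was that of exos-7 (-0.46 ± 0.19); the calls of all 8 were lost on centring. After centring, 1 member was called, nol-56, the partner of fib-1 in the methylation complex, as higher (549 FPKM in mutant-labelled, 498 FPKM in wild type). Of 7 rRNA methylation genes 0 were higher and 2, fib-1 and nsun-4, lower, with 0 called after centring and a centred median of -0.06.

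Proteasome genes fell as a block. Of 33 subunits 1 was higher and 31 lower, with a median of -0.57 (-0.32 when centred, with 11 still lower). All 14 subunits of the core particle were lower, between -0.66 and -0.49, such as pas-3 with 299 FPKM in mutant-labelled and 466 FPKM in wild-type worms. The member that rose was rpn-6.2, a paralogue of the regulatory subunit gene rpn-6.1. Of 25 autophagy genes 1 was higher and 9 lower (3 and 0 when centred, with a centred median of -0.08). The one that rose before centring was sqst-1, the receptor that brings cargo to autophagosomes, with 29.5 FPKM in mutant-labelled and 16.99 FPKM in wild-type polysomes (0.79 ± 0.16). Of 15 heat shock genes 0 were higher and 6 lower (1 and 1 when centred), among them the chaperone genes hsp-1 (-0.58 ± 0.18) and hsp-90 (-0.54 ± 0.17), whose calls were lost on centring; the centred median of 0.24 became -0.23 over the 11 members at 5 FPKM or more. Of 20 genes of folding and stress in the endoplasmic reticulum 0 were higher and 6 lower (median -0.25, 0.00 when centred, with 1 higher and 0 lower). Of 14 genes of the mitochondrial stress response 0 were higher and 8 lower (1 and 1 when centred), with hsp-6, its chaperone and common reporter, at 262 FPKM in mutant-labelled and 420.0 FPKM in wild type (-0.68 ± 0.15). Of 30 oxidative stress genes 2 were higher and 9 lower (4 and 0 when centred, with a centred median of -0.05).

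Of 22 genes of TOR and insulin signalling, the main nutrient-sensing pathways, 0 were higher and 8 lower, with a median of -0.31 (-0.06 when centred, with 4 lower and 1 higher). The kinase genes age-1, the PI3 kinase of insulin signalling, and par-4, the worm LKB1, stood at -0.78 ± 0.17 and -0.81 ± 0.17 and fell. So did aap-1, the adaptor subunit of age-1, with 10.4 FPKM in mutant-labelled and 20.7 FPKM in wild-type worms.

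Among metabolic genes, those of the methionine cycle and transsulfuration were called about as often as all genes before centring. Of 24 members 3 were higher and 6 lower, beside 13.5% higher and 27.1% lower over all genes. The median was -0.08 (0.17 when centred, with 4 higher and 1, cysl-2, lower). Of the genes that rose, cth-1 and cbs-2 belong to the route that turns homocysteine into cysteine. The cystathionine gamma-lyase gene cth-1 had 42.9 FPKM in mutant-labelled and 21.9 FPKM in wild-type worms (0.97 ± 0.17), and cbs-2 is a cystathionine beta-synthase (0.84 ± 0.21). The other gene that rose was cysl-4 (0.84 ± 0.25). No other member of the list, which covers cbs-1 and cth-2, was called higher before centring. The related cysl-2 fell to 27.1 FPKM in mutant-labelled worms, against 58.1 FPKM in wild type (-1.10 ± 0.20), and sams-3, one of the genes for the enzyme that makes S-adenosylmethionine, fell to 53.6 FPKM in mutant-labelled worms, against 79.1 FPKM in wild type (-0.56 ± 0.16), a call lost on centring. Of the cycle itself, the methionine synthase gene metr-1 (103.7 FPKM in mutant-labelled, 104.3 FPKM in wild type) and ahcy-1, the S-adenosylhomocysteine hydrolase gene (2442 FPKM in mutant-labelled, 2907 FPKM in wild type), did not pass the threshold.

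Genes of energy metabolism had medians near the offset. Of 19 glycolysis genes 1 was higher and 12 lower (1 and 2 when centred, with a centred median of -0.18), with gpd-1 and gpd-4, near-identical copies active in early development, at -0.98 ± 0.15 and -1.01 ± 0.15. Of 25 tricarboxylic acid cycle genes 0 were higher and 17 lower (1 and 0 when centred, with a centred median of -0.15), and of 69 nuclear genes of the respiratory chain 0 were higher and 32 lower (centred median -0.08, with 0 called after centring). Of 11 entries of the mitochondrial genome 0 were higher and 8 lower (centred median -0.20, with 0 called after centring). Genes of fat metabolism were mixed. Of 20 desaturase, elongase and synthesis genes 2 were higher and 1 lower (6 and 1 when centred), with elo-7 at 1.32 ± 0.26 and fat-7, a stearoyl-CoA desaturase, at -0.68 ± 0.15. Of 60 beta-oxidation genes 8 were higher and 21 lower (median -0.16, 0.10 when centred, with 13 higher and 5 lower). Of 3 lysosomal lipase genes above the minimum 2 were higher, lipl-1 (1.44 ± 0.28) and lipl-5 (0.35 ± 0.15). Of the 7 tested at any level 6 were higher and 0 lower. Of 20 V-ATPase genes, subunits of the pump that acidifies lysosomes, 0 were higher and 2 lower. Their median was -0.21 (0.05 when centred, with 1 higher and 1 lower).

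**Figure D4:**
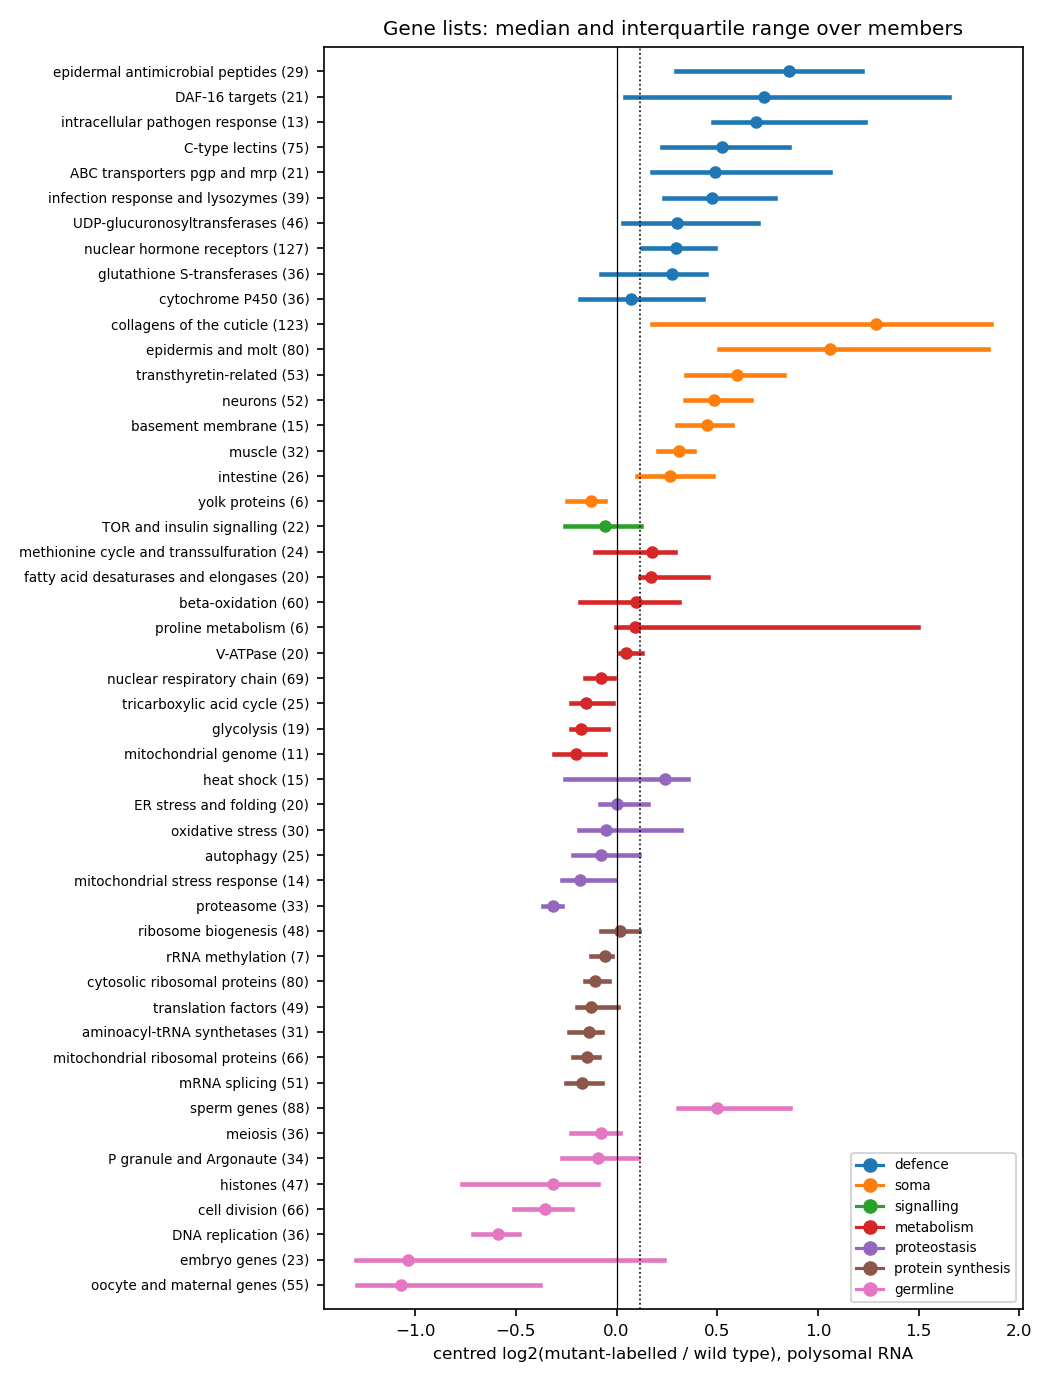
Centred log2 fold change in polysomal RNA (mutant-labelled over wild type) for the gene lists with 5 or more members, with the median as a point and the interquartile range as a bar, coloured by role and with the number of members after the name. The solid line is 0 and the dotted line the median of all genes, 0.12. Oocyte, embryo, replication and division genes lie lowest, and collagens and genes of the epidermis highest.

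Few genes passed a test of the difference between their polysomal change and their change in total RNA. In total RNA, over 12369 genes, 17.4% were higher and 32.8% lower in mutant-labelled worms, and the offset was -0.35. A Wald test of the polysomal minus the total log2 change, over 11489 genes, called 10 genes higher (0.087%) and 8 lower (0.0696%), with 441 at an unadjusted p under 0.05. Those 441 are fewer than chance alone would give at that limit, so the test was conservative. With the variances as the authors' statistics give them, not divided by the libraries, 2 were called higher and 0 lower. All lower calls, with cpg-1 and W05F2.3 given next among them, were lost, and so were most of the 10 higher ones. Both fractions come from the same harvests, a pairing that the test could not use. A gene that did not pass is therefore not shown to have changed alike in both fractions.

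The eggshell gene cpg-1 is the oocyte gene that passed this test. It had 214 FPKM in mutant-labelled and 698 FPKM in wild-type polysomes but 671 FPKM in mutant-labelled and 1162 FPKM in wild-type total RNA, a difference of -0.91 ± 0.22. The difference for W05F2.3 was -0.97 ± 0.22, with 55.3 FPKM in mutant-labelled and 187 FPKM in wild-type polysomes, against 130 FPKM in mutant-labelled and 224 FPKM in wild-type total RNA. In the other direction, the spermatogenesis transcription factor gene spe-44 had 4.57 FPKM in mutant-labelled and 2.31 FPKM in wild-type polysomes, against 13.3 FPKM in mutant-labelled and 17.2 FPKM in wild-type total RNA (1.36 ± 0.29). Among genes of a single name at 5 FPKM or more in every group that passed the test, the GABA receptor gene unc-49 had the largest difference: it had 6.60 FPKM in mutant-labelled and 5.62 FPKM in wild-type polysomes but 9.07 FPKM in mutant-labelled and 46.4 FPKM in wild-type total RNA. The polysomal values of unc-49 were close to each other and the total values were not.

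Few single genes passed the test, and the sign of the difference over the members of a list is given beside that over all genes. Among cytosolic ribosomal protein genes the centred change was -0.11 in polysomes and 0.30 in total RNA, and the centred difference was below 0 in 78 of 80 members, with none passing the test. Over all genes the centred difference was below 0 in 8006 of 11489 (69.7%). Such a share was not particular to ribosomal protein genes. A difference below 0 was also seen in 20 of 20 V-ATPase, 26 of 26 intestinal and 66 of 69 nuclear respiratory chain genes. Among ribosome biogenesis genes the centred difference was below 0 in 12 of 48, with a median of 0.11. Among oocyte genes it was below 0 in 40 of 55, a share close to that of all genes, with a median of -0.44, and the centred change was -1.07 in polysomes against -0.51 in total RNA. No test was made of these medians. Within that list the eggshell group had a median of -0.72, and the RNA-binding protein group one of -0.24, with 21 of 31 members below 0. Collagens had a median of -0.32, with a centred change of 1.29 in polysomes and 1.61 in total RNA. The median over all genes lay below 0 too, so 0 is not the value to hold these medians against. Muscle (-0.21), neuronal (-0.20) and intestinal genes (-0.25) had medians of the same sign as that of all genes. Those of meiosis (0.12) and autophagy genes (0.07) had the opposite sign.

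**Figure D5:**
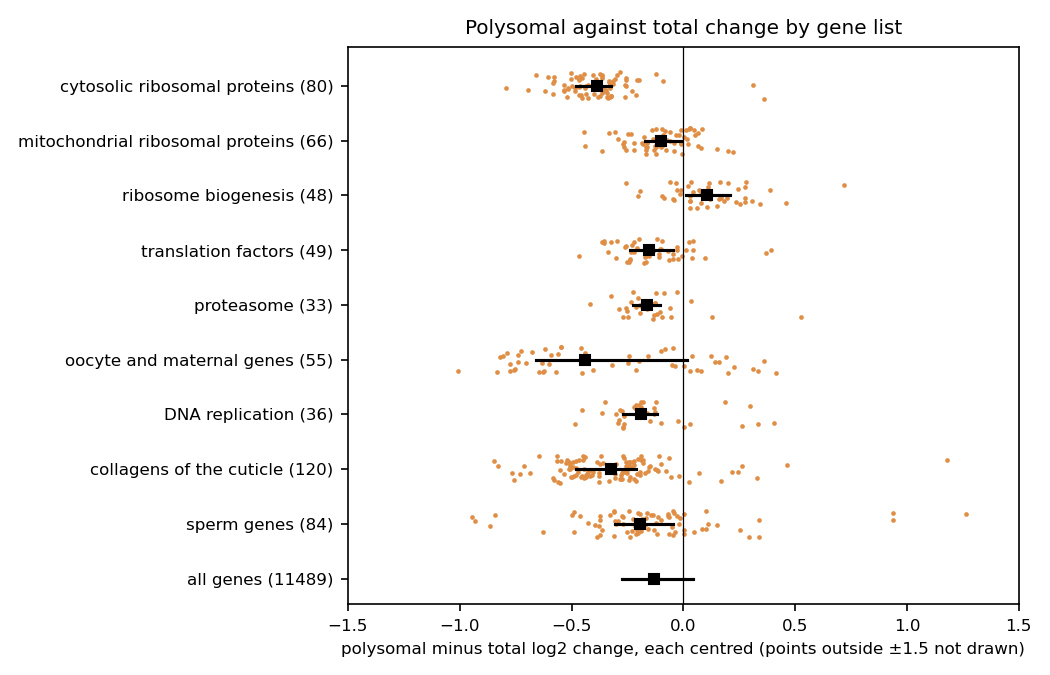
Difference between the polysomal and the total log2 fold change, each centred on its own median, for members of 9 gene lists and, as median and interquartile range alone, for all genes. Points are genes, squares are medians and black bars interquartile ranges. The medians of ribosomal protein, oocyte and collagen genes lie left of 0, as does that of all genes, and the median of ribosome biogenesis genes lies right of 0.

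The change also varied with expression level and chromosome. The centred median was 0.45 for the 2970 genes with a mean of 1 to 5 FPKM, 0.17 for the 4091 at 5 to 20 FPKM, -0.06 for the 3562 at 20 to 100 FPKM, -0.06 for the 1105 at 100 to 1000 FPKM and -0.12 for the 153 above that. Near the minimum itself, the 767 genes with a lower value of 1 to 1.5 FPKM had a centred median of 0.56, and the 1181 just outside it, at 0.5 FPKM or more, 0.57. By chromosome the centred median ran from -0.04 on III and 0.00 on I through 0.10 on II, 0.15 on IV and 0.24 on V to 0.31 on X. The X chromosome carries few genes active in the germline, and its genes were also weaker, with a median of 7.11 FPKM in mutant-labelled and 7.13 FPKM in wild-type worms. At 20 to 100 FPKM the centred median was still 0.28 for 290 genes on X, against -0.09 for 3271 on the autosomes. At 1 to 5 FPKM it was 0.41 and 0.46. By gene class, the 22 small nuclear RNA entries had a centred median of -1.06, with 31.8% called lower, and the 11418 protein-coding genes one of 0.12.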

How the data were processed

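The submitters' processing notes name HISAT2 2.1.0, Cuffdiff 2.2.1, StringTie 1.3.4d, FastQC 0.11.7 and build WBcel235. No settings, strand rule or rule for multi-mapping reads is given in the sources used here, which leaves near-identical, overlapping and antisense genes uncertain. The authors deposited 1 pooled FPKM per gene and group, with log2 fold changes, the Cuffdiff statistic (a score without set limits), p-values and q-values for 6 comparisons. No per-library values were used, so depth is unknown and no counting interval is given; limma, planned for values per library, was not run.

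The table held 46217 gene IDs, of which 43259 had a symbol, in 41875 entries of name and locus; 234 of the 11881 genes carried several names. Start positions count from 0, and 1 was added. Log2 fold changes were recomputed from the FPKM values and differed from the deposited log2 values by at most 1.3e-05. The 2815 tested genes below 1 FPKM in a group (578 called higher, 297 lower) entered only where stated. The smallest deposited q-value, 0.000207, was held by 1423 genes (12.0%).

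The SE of a log2 change was taken from the ratio of ln fold to the authors' score, with each group's variance solved from the comparisons and divided by 3 or 4 libraries; undivided, its median was 0.35. Wald tests, with Benjamini-Hochberg adjustment over all genes, were run on simulated data too. Those data were drawn with the same implied SEs, so they cannot show whether these SEs are right. In each of 50 gene lists, up to 4 called members with the largest change were named, beside the 12 largest rises and falls, the 5 most abundant genes and the 5 largest differences between fractions; further members, chosen after their values were seen, illustrate lists. The members and lists were chosen with earlier results of these data known. Names came from the Ensembl release 115 annotation, and pandas 2.3.3, numpy 2.4.6, scipy 1.17.1 and matplotlib 3.10.9 in Python 3.11.15 were used.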

Additional observations from a re-analysis of the deposited data

Results flagged for a closer look

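Results of the polysomal comparison that differed from the total RNA comparison of the same strains, by the Wald test of the difference, are 10 genes higher and 8 lower in the polysomal change. The 5 named lower ones were D1046.18,cfim-2 (-2.73), C33F10.11 (-1.25), R10E4.7 (-1.07), W05F2.3 (-0.97) and cpg-1 (-0.91), as polysomal minus total log2 fold change. The named higher ones were unc-49 (2.59), nspc-7 (2.21), C18H9.12 (2.02) and Y53F4B.47 (0.83). For C18H9.12 and Y53F4B.47, short noncoding RNAs, the implied SE of the polysomal change was 0.029 and 0.0065 while the q-value in the authors' deposited table was 0.70 and 0.80, so their SE is not usable and neither is taken as a difference. D1046.18,cfim-2 is an entry of several genes, so its value cannot be given to either. For nspc-7, a nematode-specific peptide gene, polysomal FPKM was 30.8 in mutant-labelled and 11.3 in wild-type worms, against 8.51 in mutant-labelled and 14.4 in wild-type total RNA.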

How the results depend on the processing

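No paired analysis was possible because the table holds 1 pooled value per group; the replicate block and leaving out each library were not run for the same reason. The 1602 higher calls became 886 with 5 FPKM or more in both groups, 2659 in the centred Wald test and 2656 in that test without genes of implied SE under 0.1. The 3214 lower calls became 2092 at q under 0.01, 912 in the centred Wald test and 911 without such genes. The other alternatives kept both counts within 1.5 times: 1069 to 2180 higher and 2885 to 3511 lower. The cause was not tested, apart from the centring, which moves every change by 0.26. The median shift ran from -0.31 to -0.07. The 10 and 8 differences between fractions became 2 and 0 with the variances as the statistics give them, 8 and 23 when each change was centred, and 8 and 8 without genes of implied SE under 0.1, an alternative chosen after seeing the data. Of 214 named genes, 56 were no longer past the threshold in the centred Wald test. Calls of at least 2-fold numbered 538 higher and 336 lower, against 383 and 254 with a pseudocount of 1 FPKM. Of 50 list medians, 6 moved beyond their spread over members at 5 FPKM or more: lysosomal lipases 0.41, heat shock -0.23, DAF-16 targets 0.52, embryo genes 0.33, collagens 1.06 and epidermis 0.64.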

Other observations

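Gene groups outside the lists were read from the Gene Ontology terms in the authors' deposited table, 591 terms with 15 or more members, and those below were chosen after their values were seen, with no test. The counts called higher exceeded those called lower in 3 chosen groups of protein kinases and phosphatases, though not in every such group. Of 81 tyrosine phosphatase genes 45 were higher and 9 lower, with a centred median of 0.74, and among those that fell were the egg activation genes egg-3, egg-4 and egg-5 and the cell cycle genes cdc-25.1 and cdc-25.2. Of 43 non-membrane tyrosine kinase genes 26 were higher and 1 lower (0.88), such as C35E7.10 with 32.1 FPKM in mutant-labelled and 16.6 FPKM in wild-type worms. Of the genes of serine phosphorylation 50 were higher and 18 lower (0.63), such as ttbk-8.1 with 42.8 FPKM in mutant-labelled and 18.8 FPKM in wild-type worms. Together these were 239 genes. Related terms were mixed. Of 299 genes of kinase activity 41 were higher and 73 lower. For serine/threonine kinases the counts were 60 and 59 of 243, and for all protein kinases 91 and 62 of 321. Of 15 serine/threonine phosphatase genes 0 were higher and 8 lower, and of 82 phosphoprotein phosphatase genes 39 were higher and 20 lower.

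Of 28 serine protease inhibitor genes 11 were higher and 2 lower, with E01G6.1 at 7.13 FPKM in mutant-labelled and 1.09 FPKM in wild-type worms. Of 16 intermediate filament genes 6 were higher and 0 lower. Of 32 ligand-gated channel genes 5 were higher and 0 lower, with lgc-21 at 20.2 FPKM in mutant-labelled and 4.18 FPKM in wild-type worms. The count of 5 higher is near the share over all genes, 13.5%, and that of genes at 1 to 5 FPKM, 17.4%. Of 17 exonuclease genes of the 3'-5' type 0 were higher and 12 lower, such as the DNA repair gene mre-11 with 20.02 FPKM in mutant-labelled and 36.3 FPKM in wild-type worms. Of 21 genes of translational repression 2 were higher and 16 lower, and 11 of the 21 also stand in the lists above.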
